A study of Mus musculus with 14 samples.

Results

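The kidney transcriptome of healthy mice was described from the 3 WT control mice of a series of 14 mice, and the other 11 mice were not used. All 21878 genes were ranked by their mean FPKM over the 3 mice, and the 200 most abundant genes were taken as the members. The 3 mice were male C57BL/6J mice without a *Cfb* deletion, which ate chow with 10% of calories from fat and received 50 mM sodium citrate buffer in place of streptozotocin (STZ). The labels call them healthy controls, and their time label reads 34 weeks with no starting point. Their treatment label nevertheless carries the text of the diabetic mice, so the group was taken from the sample names, and the diet and disease labels have the same reading. RNA of kidney tissue was sequenced from stranded mRNA libraries, and nothing in the labels says whether cortex and medulla were taken in fixed proportions. FPKM is a unit that adjusts the sequenced fragments of a gene for its length and for the depth of the library, so that genes can be compared with each other within a mouse. The 3 mice form a single group, so values were described with their spread and no test was made.

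The kidney filters blood in the glomerulus and then recovers nearly all of the filtrate along the nephron. The proximal tubule takes back phosphate, glucose, amino acids, and proteins and runs on mitochondrial oxidation of fatty acids, the thick ascending limb and the distal convoluted tubule reabsorb salt, and the connecting tubule and collecting duct set the final calcium, salt, and water content of the urine. RNA of kidney tissue mixes cells of these segments, here in proportions that are not known. Fewer cells of a type cannot be told apart from less RNA per cell.

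The sequences upstream of 5 genes that mark successive segments are shown first, since these genes anchor the rest of the description. *Kap* encodes the kidney androgen-regulated protein of the proximal tubule, *Slc34a1* the sodium-phosphate cotransporter of its brush border, *Umod* the uromodulin of the thick ascending limb, *Slc12a3* the thiazide-sensitive cotransporter of the distal convoluted tubule, and *Aqp2* the vasopressin-regulated water channel of the collecting duct. The windows were taken from RefSeq on build GRCm38.p6 and run from 250 bases before to 10 bases after a transcript start. They lie at chr6:133853658-133853917 on the minus strand for *Kap*, chr13:55399398-55399657 on the plus strand for *Slc34a1*, chr7:119479253-119479512 on the minus strand for *Umod*, chr8:94328958-94329217 on the plus strand for *Slc12a3*, and chr15:99578806-99579065 on the plus strand for *Aqp2*. Capitals mark TATAAA, the core of a TATA box, CCAAT, and GTTAAT, an arm of the palindrome known for HNF1 factors, each searched on both strands.
Kap: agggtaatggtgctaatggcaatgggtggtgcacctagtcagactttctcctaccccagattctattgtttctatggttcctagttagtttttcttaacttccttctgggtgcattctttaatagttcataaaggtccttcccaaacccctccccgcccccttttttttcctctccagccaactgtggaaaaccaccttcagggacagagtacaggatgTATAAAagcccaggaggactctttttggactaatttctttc
Slc34a1: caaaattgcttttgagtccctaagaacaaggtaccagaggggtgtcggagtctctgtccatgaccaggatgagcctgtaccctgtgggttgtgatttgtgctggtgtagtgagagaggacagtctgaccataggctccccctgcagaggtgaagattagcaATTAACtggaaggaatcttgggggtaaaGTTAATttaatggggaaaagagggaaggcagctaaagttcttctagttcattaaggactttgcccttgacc
Umod: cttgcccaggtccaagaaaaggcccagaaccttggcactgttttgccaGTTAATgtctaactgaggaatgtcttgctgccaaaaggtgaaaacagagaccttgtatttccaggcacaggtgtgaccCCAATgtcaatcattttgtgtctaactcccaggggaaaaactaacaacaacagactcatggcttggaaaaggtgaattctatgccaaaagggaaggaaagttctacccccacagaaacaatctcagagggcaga
Slc12a3: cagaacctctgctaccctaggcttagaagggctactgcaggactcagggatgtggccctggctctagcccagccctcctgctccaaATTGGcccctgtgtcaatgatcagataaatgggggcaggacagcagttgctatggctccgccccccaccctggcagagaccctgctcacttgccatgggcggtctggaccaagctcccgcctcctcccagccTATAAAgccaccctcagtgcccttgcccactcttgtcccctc
Aqp2: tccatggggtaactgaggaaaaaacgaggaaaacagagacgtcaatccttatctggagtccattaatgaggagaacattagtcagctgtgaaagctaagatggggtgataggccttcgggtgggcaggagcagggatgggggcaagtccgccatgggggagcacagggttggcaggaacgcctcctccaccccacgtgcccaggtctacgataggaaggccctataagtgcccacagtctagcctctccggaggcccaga
The *Kap* window held TATAAA from 31 bases before the start, and the *Slc12a3* window held it from 32 bases before the start. The *Slc34a1* window held GTTAAT from 61 bases and its reverse complement from 89 bases before the start, whereas the *Umod* window held GTTAAT at 202 bases and CCAAT at 124 bases. The *Aqp2* window held none of these motifs.

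Abundance was concentrated in few of the genes listed. No symbol matched the pattern for mitochondrially encoded genes, so every share and rank given here is without them. The 200 members held 46.8%, 53.5%, and 49.6% of the summed FPKM in mouse 1, 2, and 3, or 50.0% ± 3.41 (SD, n = 3). The 10 most abundant genes alone held 20.6% ± 2.05 and the 50 most abundant held 32.6% ± 2.72. *Kap* by itself took 10.6%, 13.9%, and 10.2%, and the 199 members after it took 38.4% ± 1.97. Of the 21878 genes, 10104 were at or above 1 FPKM in all 3 mice, 3926 were at or above 10 FPKM in all 3, and 5507 were listed at 0 in all 3. Only 44 genes had a mean of at least 1000 FPKM. The summed FPKM was 390374, 488196, and 427297 in mouse 1, 2, and 3, so the highest and the lowest sum belonged to mouse 2 and mouse 1.

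**Figure D1:**
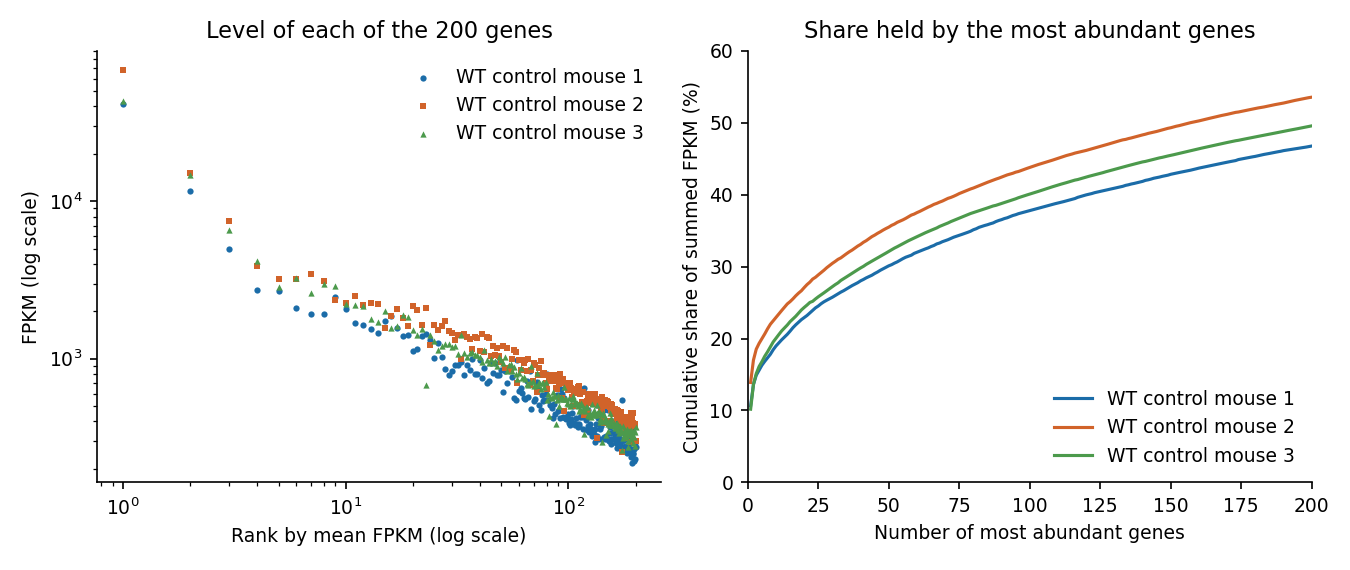
Left, FPKM of each of the 200 members in each of the 3 WT control mice against its rank by mean FPKM, both on log scales. Right, cumulative share of the summed FPKM in percent; the curves end at 46.8%, 53.5%, and 49.6% for mouse 1, 2, and 3.

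When each mouse was ranked alone, 173 genes were among the 200 of every mouse, all of them members, and 228 genes were among the 200 of at least 1 mouse. The border at rank 200 fell in a dense range of values. The last 5 members were *Eno1*, *Ubb*, *Atp6v1f*, *Sod3*, and *Defb1*, with means from 321 to 314 FPKM, and the first 5 genes outside were *Rps13*, *Park7*, *Acadm*, *Hadh*, and *Rpl9*, with means from 312 to 308 FPKM. The SD of these 10 genes ran from 26.4 to 85.1 FPKM, far wider than the steps between their means.

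*Kap* was the most abundant gene listed in each mouse, at 41536, 67836, and 43498 FPKM. As deposited, mouse 2 stood well above mice 1 and 3, which lay close together. *Kap*, with a longest transcript of 707 bases, falls in the shortest of 5 length classes described below. The median log2 ratio to the mean in that class was -0.31 in mouse 1 and 0.27 in mouse 2. With the medians of length classes removed, *Kap* was lowest in mouse 3. *Kap* is induced by androgens and marks the male kidney. The second gene was *Gpx3*, the secreted glutathione peroxidase that the proximal tubule releases into plasma, at 11625, 15179, and 14592 FPKM, and *Kap* exceeded it 3.67-fold ± 0.749 (SD, n = 3). The ferritin heavy chain *Fth1* followed at 4995, 7439, and 6549 FPKM and the light chain *Ftl1* at 2736, 3892, and 4198 FPKM. As deposited, mouse 1 was the lowest of the 3 for all 4 of these genes.

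Genes of inositol handling, sodium transport, and detoxification were also near the top. *Miox*, which opens the ring of myo-inositol in the proximal tubule, was at 2110, 3188, and 3241 FPKM. *Fxyd2*, the gamma subunit of the sodium pump, was at 1926, 3475, and 2628 FPKM. The intracellular glutathione peroxidase *Gpx1* was at 1914, 3128, and 2964 FPKM, and the male-biased cytochrome *Cyp4b1* was at 2469, 2347, and 2877 FPKM. The order of these 4 genes by mean was within their spread, since the ranges of the mice overlapped between every neighbouring pair.

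The transporters among the 30 most abundant genes besides *Fxyd2* were *Slc34a1* and *Slc27a2*. *Slc34a1* was at 1740, 1571, and 2017 FPKM, which placed it at rank 15. *Slc27a2*, which takes up and activates long-chain fatty acids, was at 1863, 1860, and 1569 FPKM at rank 16. These 2 genes could not be ordered, since their ranges overlapped. *Klk1*, the tissue kallikrein that the connecting tubule secretes, was at 1639, 2178, and 2147 FPKM at rank 12, and *S100g*, a small calcium-binding protein of the distal nephron, was at 786, 1504, and 1236 FPKM at rank 29. These were the only genes of the 30 that were on a list for a segment beyond the proximal tubule.

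The other genes of the 30 described here were the elongation factor *Eef1a1*, the translationally controlled *Tpt1*, the peroxidase *Prdx5*, the trypsin inhibitor *Spink1*, the aminoacylase *Acy3*, the aldehyde reductase *Akr1a1*, the arginine-forming enzyme *Ass1*, the protease *Napsa*, the selenium carrier *Sepp1*, the hydroxysteroid dehydrogenase *Akr1c21*, the ribosomal genes *Rpl41* and *Rps29*, and the respiratory chain and ATP synthase genes *Cox8a*, *Atp5b*, *Cox6c*, *Ndufa4*, and *Cox4i1*. As deposited, *Eef1a1* varied least of the 30, at 2053, 2246, and 2236 FPKM (CV 4.99%), and *Napsa* varied most. By share of the summed FPKM, *Eef1a1* was at 0.526%, 0.460%, and 0.523%, whereas *Atp5b* varied less, at 0.356%, 0.335%, and 0.359%.

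**Figure D2:**
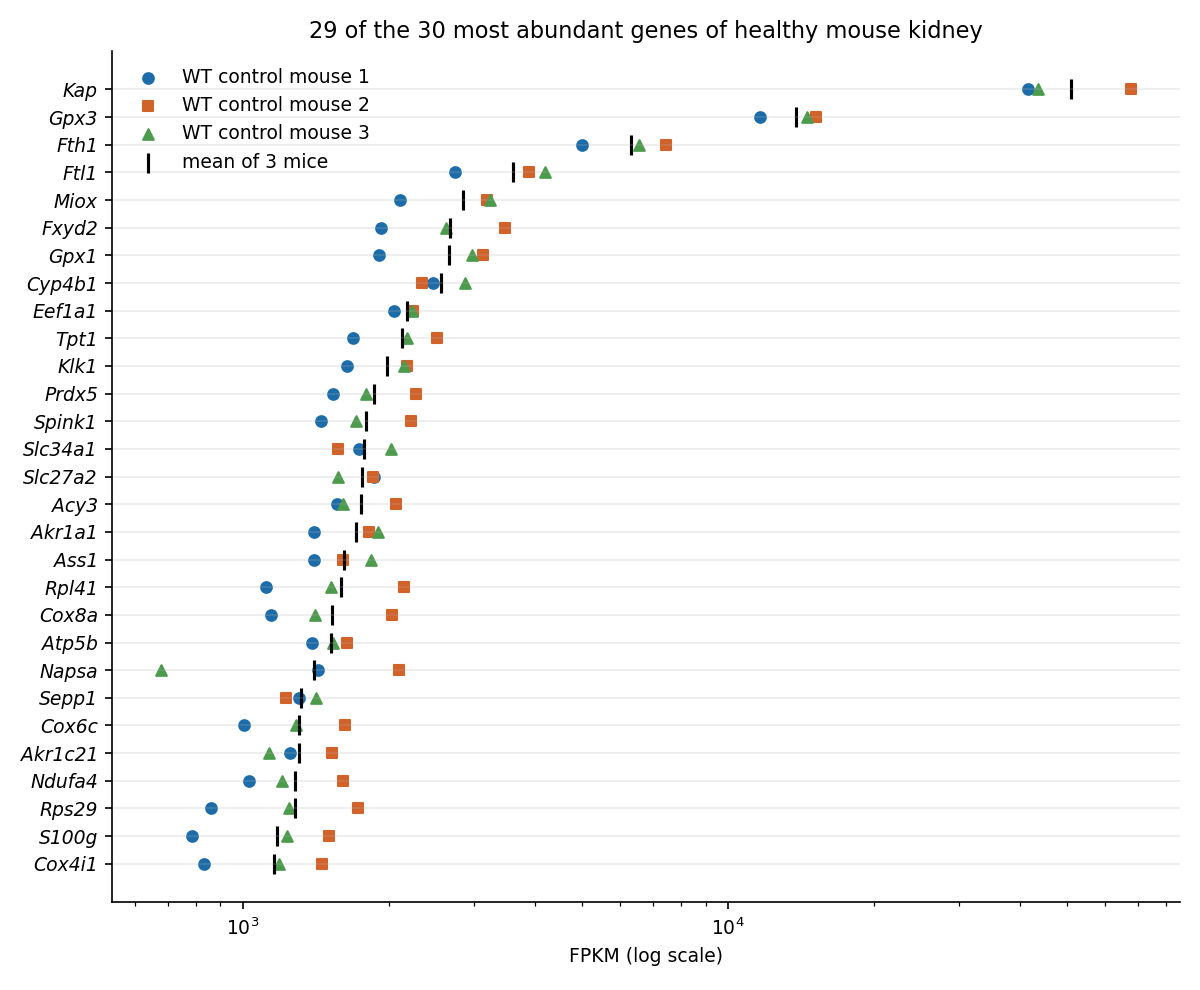
FPKM on a log scale of 29 of the 30 most abundant genes in each WT control mouse, with the mean of the 3 mice as a bar. *Kap* lies between 41536 and 67836 FPKM, apart from all others, and *Napsa* in mouse 3 lies at 679 FPKM, far below the other mice.

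By function, the members fell mostly into translation, respiration, and metabolism. Cytosolic ribosomal proteins were 41 of the 200 members and subunits of nuclear-encoded oxidative phosphorylation were 33. They held similar shares of the summed FPKM, 5.56% ± 0.923 and 5.49% ± 0.618 (SD, n = 3). A mean of at least 10 FPKM was reached by 82 of all 86 ribosomal protein genes and by 87 of all 98 oxidative phosphorylation genes. Genes by number and genes by share differed in order. The 9 secreted proteins held the largest share, 13.2% ± 2.02, most of it from *Kap*, and the 18 genes of antioxidant defence, detoxification, and metal binding held 9.12% ± 0.553.

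The most abundant ribosomal genes were *Rpl41* at 1117, 2154, and 1519 FPKM, *Rps29* at 860, 1732, and 1248 FPKM, and *Rplp1* at 698, 1371, and 982 FPKM. The order of the mice was the same in each, with mouse 2 highest and mouse 1 lowest, and this held for all 41 ribosomal members. Of the 4408 genes with a mean of at least 10 FPKM, mouse 2 was highest for 45.8% and mouse 1 lowest for 48.3%. With each mouse scaled to the same sum mouse 2 was highest for 40 of the 41, and with the medians of length classes removed for 31. In oxidative phosphorylation, *Cox8a* of complex IV was at 1145, 2036, and 1411 FPKM, *Atp5b*, the catalytic subunit of the ATP synthase, at 1389, 1638, and 1534 FPKM, and *Cox6c* at 1009, 1629, and 1290 FPKM. These 3 genes could not be ordered, since their ranges overlapped. Of the 33 genes of this class 31 were highest in mouse 2 and 32 were lowest in mouse 1. With the medians of length classes removed these counts were 13 (39.4%) and 19 (57.6%), beside 35.4% and 38.5% of the 4408 genes.

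Intermediary metabolism counted 28 members with 5.50% ± 0.168 of the summed FPKM, the steadiest of the larger classes. *Miox* and *Acy3* were among its 3 most abundant genes, and the gluconeogenic enzymes *Fbp1* (461, 506, and 521 FPKM) and *Pck1* (549, 255, and 264 FPKM) were also members. *Fbp1* was alike in the mice, whereas *Pck1* was about double in mouse 1. Membrane transport counted 10 members with 2.51% ± 0.145, including the sodium pump subunit *Atp1b1* (981, 696, and 746 FPKM), the urate transporter *Slc22a12* (766, 997, and 835 FPKM), and the mitochondrial carriers *Slc25a5* and *Slc25a3*. As deposited, the beta subunit *Atp1b1* was highest in mouse 1, while the gamma subunit *Fxyd2* was lowest there. Their longest transcripts have 2580 and 668 bases, and *Fxyd2* falls in the shortest of the 5 length classes described below. The median log2 ratio to the mean in that class was -0.31 in mouse 1.

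Brush border, endocytic, and lysosomal genes were 6 members with 0.923% ± 0.162, led by *Napsa*, the tetraspanin *Cd63*, and the sphingolipid activator precursor *Psap*. The brush border peptidases *Ggt1* (387, 525, and 453 FPKM) and *Mep1a* (545, 455, and 296 FPKM) were in this class. Protein synthesis and folding counted 10 members with 2.02% ± 0.0840, led by *Eef1a1*, *Tpt1*, and the cyclophilin *Ppia*. Only 3 members were in the class of cytoskeleton, adhesion, and cell surface, namely *Itm2b*, *Actb*, and *S100a1*. The 42 members whose symbols matched no class held 5.35% ± 0.232. They were led by *Sepp1*, *S100g*, and the electron carrier *Cyb5a*, and they included *Guca2b* (uroguanylin, 572, 995, and 677 FPKM), *Dnase1* (477, 847, and 896 FPKM), and the haemoglobin gene *Hbb-bs*. Enzymes such as *Adh1*, *Glyat*, and *Ldhd* were also among them, so the classes of metabolism and detoxification are not complete.

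**Figure D3:**
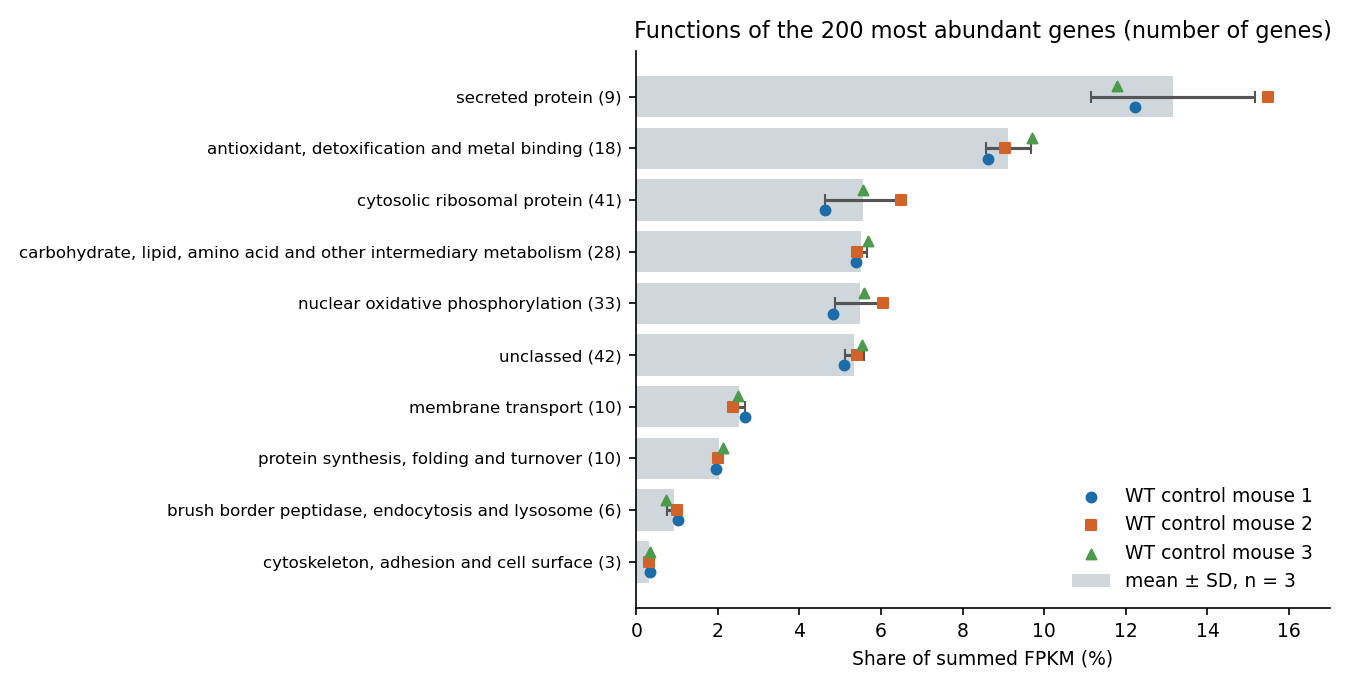
Share of the summed FPKM in percent by function class of the 200 members, with the number of genes in parentheses; bars are means and error lines SDs over 3 WT control mice, and points are the mice. Secreted proteins hold the largest share, 13.2%, of which *Kap* alone is 11.6%.

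The GO terms that came with the values gave a similar picture. All 200 members carried terms, and 39.5% of them had the term mitochondrion, beside 13.5% of the 10621 genes with terms and a mean of at least 1 FPKM. The term oxidation-reduction process was on 22.5% of the members beside 4.62% of these genes, and translation was on 17.5% beside 2.40%. The term for regulation of DNA-templated transcription was on 4 of the 200 members, beside 12.8% of these genes. Members were short. Their median longest transcript was 1119 bases, beside 3037 bases for genes with a mean of at least 1 FPKM, and it was 780 bases in the ribosomal class and 704 bases in oxidative phosphorylation.

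Among the members, 34 are known as genes of the proximal tubule from textbook knowledge, a set chosen after their values were seen. They held 22.2% ± 1.69 of the summed FPKM, and without *Kap* the other 33 held 10.8%, 10.2%, and 10.8%, or 10.6% ± 0.341 (SD, n = 3). The spread without *Kap* was thus small, and the difference between the mice in the larger sum came with *Kap*. These sums were not computed with the medians of length classes removed. Besides the genes above, the set included *Inmt*, *Cyp2e1*, *Sord*, which oxidizes sorbitol, *Khk*, which phosphorylates fructose, and *Glyat*, which conjugates glycine.

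RefSeq windows from 250 bases before to 50 bases after the start were matched for 150 of the 200 members, which gave 175 windows. TATAAA on either strand was in 18.9% of them, beside 12.5% of the 21032 windows of all genes and 7.23% of the 10977 windows of genes with a mean of at least 1 FPKM. CCAAT was in 34.3%, beside 38.2% and 37.1%, and GTTAAT was in 9.14%, beside 6.26% and 4.62%. In the proximal set 10 of 32 windows held TATAAA and 8 held GTTAAT, as in the *Kap* and *Slc34a1* sequences above, whereas in the 57 windows of ribosomal and oxidative phosphorylation members 7 held TATAAA and 0 held GTTAAT. These are counts of letters and name no binding site.

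Of the 5 anchoring markers, *Slc34a1* ranked 15, *Umod* 88, *Slc12a3* 482, and *Aqp2* 593 after *Kap* at rank 1. All 5 were well above 0 in each mouse, so the kidney label was met by its defining markers. *Umod* was at 744, 655, and 383 FPKM, *Slc12a3* at 150, 113, and 157 FPKM, and *Aqp2* at 89.5, 148, and 100.3 FPKM. Mouse 3 was low for *Umod* and mouse 2 was high for *Aqp2*, while the *Slc12a3* values of mice 1 and 3 lay together.

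All 12 early proximal tubule markers (segments S1 and S2) had a mean above 1 FPKM, and their median was 139, 109, and 140 FPKM in mouse 1, 2, and 3. After *Slc34a1*, the highest were *Slc13a3*, a dicarboxylate transporter, at 277, 262, and 304 FPKM, and the organic anion transporter *Slc22a6* at 269, 301, and 266 FPKM. The glucose transporter *Slc5a2* was at 223, 244, and 313 FPKM, and its basolateral partner *Slc2a2* was at 54.8, 40.7, and 44.6 FPKM. The endocytic receptors were lower, with *Lrp2* (megalin) at 136, 79.9, and 109 FPKM and *Cubn* (cubilin) at 36.6, 24.5, and 24.7 FPKM. Mouse 2 was lowest for 10 of these 12 genes as deposited, beside 34.6% of the 4408 genes. With each mouse scaled to the same sum it was lowest for 12, beside 60.1%, and after median-ratio scaling for 5, beside 19.6%. With the medians of length classes removed, mice 1 and 2 were each lowest for 5, beside 38.5% and 35.9%.

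The 10 late proximal tubule markers (segment S3) had a median of 214, 172, and 142 FPKM. *Kap*, *Slc27a2*, *Napsa*, and *Slc7a13* of this list were members. *Slc7a13*, an aspartate and glutamate transporter of S3, was at 652, 441, and 332 FPKM, and *Slc3a1*, the heavy chain for cystine transport, was at 251, 237, and 187 FPKM. In each mouse the median of the late list was above that of the early list. The lowest late value, 142 FPKM, lay next to the highest early value, 140 FPKM, and with each mouse scaled to the same sum the ranges overlapped (144 to 239 against 97.4 to 155).

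Connecting tubule markers had a median of 101, 89.8, and 127 FPKM, which overlapped the early proximal list. *Klk1* and *S100g* were followed by *Calb1*, a calcium buffer, at the median values, whereas the calcium channel *Trpv5* was at 3.22, 1.82, and 3.38 FPKM. Thick ascending limb markers had a lower median of 58.5, 84.2, and 61.0 FPKM. Within this list *Slc12a1*, the furosemide-sensitive cotransporter, was at 116, 84.2, and 51.5 FPKM, and *Egf* was at 153, 94.2, and 78.0 FPKM. Both had the order of mice seen for *Umod*, but the claudin *Cldn10* did not, at 134, 173, and 146 FPKM. Distal convoluted tubule markers had a median of 21.0, 26.8, and 29.3 FPKM, which overlapped none of the other segment lists. *Wnk4*, a kinase that controls *Slc12a3*, was at 34.7, 28.7, and 45.4 FPKM and the magnesium channel *Trpm6* at 2.57, 1.64, and 2.50 FPKM.

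The collecting duct lists were lower still and could not be ordered. Principal cell markers had a median of 9.68, 8.88, and 12.8 FPKM, and intercalated cell markers 9.52, 9.47, and 10.1 FPKM. *Hsd11b2*, which inactivates glucocorticoids in aldosterone target cells, was at 91.9, 93.5, and 136 FPKM, and the proton pump subunit *Atp6v1b1* was at 34.6, 29.9, and 51.9 FPKM. *Aqp4*, the basolateral water channel, was at 9.32, 5.81, and 0.192 FPKM, so mouse 3 was nearly without it although *Aqp2* and *Aqp3* (47.1, 39.7, and 51.6 FPKM) were present there. The urea transporter *Slc14a2* of the inner medulla was at 0.120, 3.93, and 0 FPKM, and thin limb markers had medians of 0.659, 1.03, and 0.364 FPKM. The more abundant genes of the inner medulla and osmolyte list differed less. The aldose reductase *Akr1b3* was at 29.2, 35.5, and 24.9 FPKM, and the taurine transporter *Slc6a6* was at 64.0, 36.1, and 42.2 FPKM, highest in mouse 1. *Slc5a3* of the same list was at 9.80, 4.93, and 4.25 FPKM. Of the 4 genes of this list with a mean of at least 1 FPKM, mouse 3 was lowest for 3 as deposited. With the medians of length classes removed it was lowest for all 4, beside 25.5% of the 4408 genes, or 17.1% as deposited. The part of the amount of medulla in each piece was not tested.

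**Figure D4:**
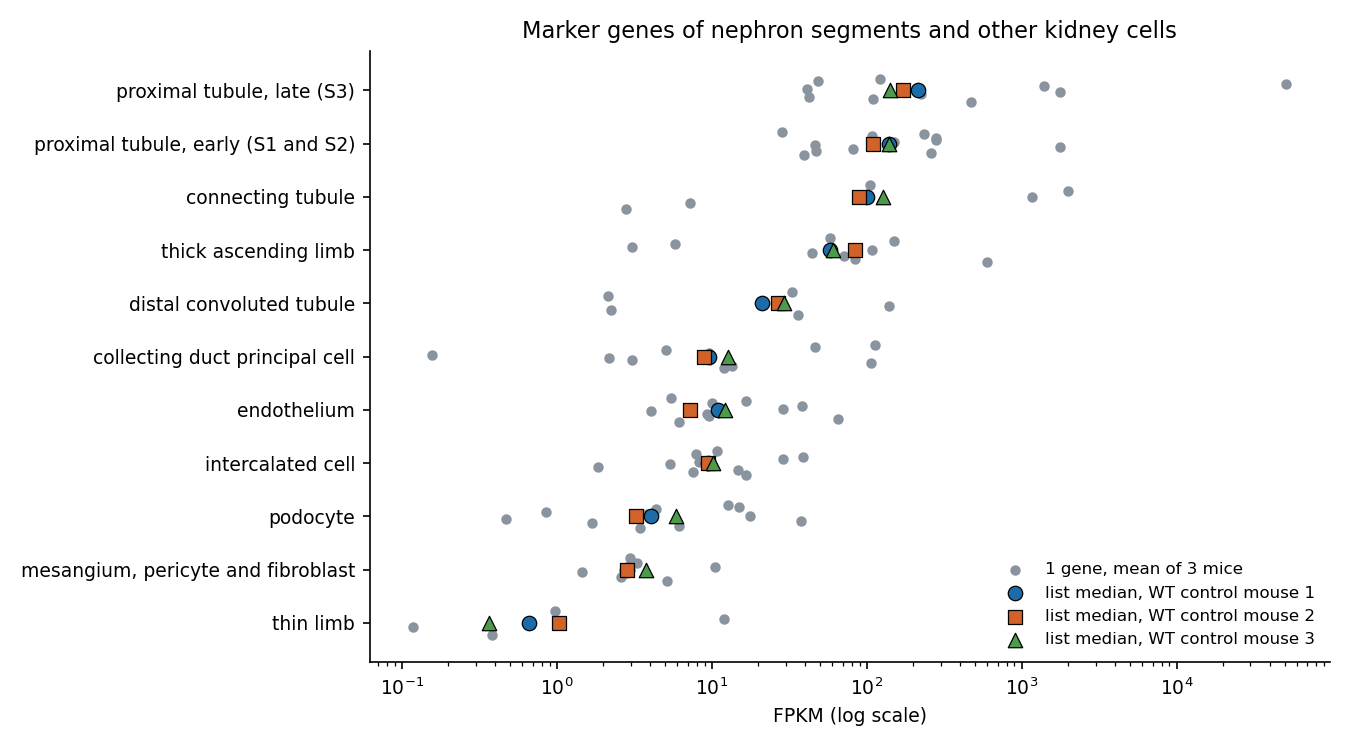
FPKM on a log scale of marker genes for 11 lists of nephron segments and other kidney cells. Grey points are genes (mean of 3 mice) and coloured points the median of each list per WT control mouse; the late and early proximal lists lie highest, at 142 to 214 and 109 to 140 FPKM, and the thin limb lowest, at 0.364 to 1.03 FPKM.

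Cells outside the tubule gave modest levels. Podocyte markers had a median of 4.09, 3.24, and 5.88 FPKM, with podocalyxin *Podxl* at 41.6, 22.7, and 48.7 FPKM. Of the 9 podocyte markers with a mean of at least 1 FPKM, 8 were highest in mouse 3, or 6 with each mouse scaled to the same sum, beside 21.5% and 25.6% of the 4408 genes. Other lists had like counts, with 8 of 10 endothelial, 8 of 10 intercalated cell, and 7 of 9 principal cell markers highest in mouse 3. Endothelial markers had a median of 11.0, 7.22, and 12.2 FPKM, and *Plvap*, a protein of fenestrated endothelium, was the highest at 56.5, 75.0, and 65.9 FPKM. Smooth muscle markers had a median of 6.37, 8.12, and 7.49 FPKM. Renin (*Ren1*) was at 36.6, 42.4, and 70.3 FPKM. Markers of mesangium, pericytes, and fibroblasts had a median of 2.86, 2.83, and 3.76 FPKM, which overlapped that of podocytes. Macrophage markers had a median of 11.3, 15.7, and 12.9 FPKM. Markers of T cells, B cells, and neutrophils were all below 3 FPKM in each mouse, and *Ly6g* was listed at 0 in all 3.

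Blood contributed to the members through *Hbb-bs*, the adult beta globin, at 308, 425, and 275 FPKM and rank 185, and the alpha globin *Hba-a1* was at 176, 286, and 178 FPKM. All 5 erythroid markers were highest in mouse 2 as deposited, beside 45.8% of the 4408 genes. After median-ratio scaling all 5 were again highest there, beside 2751 of the 4408 genes. With each mouse scaled to the same sum 3 of them were so, beside 968 of these genes. With the medians of length classes removed, 2 were highest in mouse 2, beside 35.4%, and 3 in mouse 1. Whether the mice differed in the amount of blood was not tested. Alpha and beta globin genes are near-identical pairs, so the split between the copies is uncertain. Tubular injury markers were mixed. *Havcr1*, the kidney injury molecule, was at 0.281, 0.731, and 0.189 FPKM and *Lcn2* at 0.636, 1.17, and 0.838 FPKM, whereas *Spp1* was at 229, 242, and 243 FPKM and *Clu* at 91.3, 124, and 112 FPKM.

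Markers of neighbouring tissues were mostly at or near 0. All 7 urothelial markers had a mean under 1 FPKM, 5 of 7 adrenal markers were listed at 0 in all mice, and skeletal muscle markers summed to 0, 0.0812, and 0 FPKM. The adipocyte list summed to 21.2, 33.2, and 18.4 FPKM, nearly all from *Fabp4*, which endothelial cells also express, and *Adipoq* was at 0, 0.0408, and 0 FPKM. The 4 Y-linked genes of the list all had a mean of at least 1 FPKM, beside the male label. Of the hepatocyte list, *Cps1* was listed at 0 in all mice and *Alb* was at 3.36, 3.05, and 3.66 FPKM, whereas transthyretin (*Ttr*) was at 65.3, 58.2, and 46.6 FPKM. Most of the sum of the male-biased list was *Kap*. *Slc7a12*, a transporter of the female-biased list, was at 19.9, 6.17, and 0.322 FPKM and *Cyp4a14* at 10.5, 4.97, and 1.76 FPKM, so both were highest in mouse 1 and lowest in mouse 3.

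The likeness of the mice was described over all genes and over the members. Pearson's r of log2(FPKM + 0.1) across 21878 genes was 0.990 for mice 1 and 2, 0.993 for mice 1 and 3, and 0.991 for mice 2 and 3, and across the 200 members it was 0.929, 0.953, and 0.966. The members span a narrower range of levels than all genes, so the 2 sets of r cannot be compared. Genes are not independent replicates, so these values describe the pairs alone. The median coefficient of variation (CV, the SD as a percentage of the mean) was 21.4% for the members, from 0.598% to 50.6%, beside 14.5% for the 4408 genes with a mean of at least 10 FPKM. This order turned with the scaling. The median CV was 13.5% for the members and 14.5% for the 4408 genes with each mouse scaled to the same sum, and 27.2% and 16.3% after median-ratio scaling.

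Mouse 2 was highest for 152 of the 200 members, beside 45.8% of the 4408 genes, and mouse 1 was lowest for 160, beside 48.3%. With each mouse scaled to the same sum the counts were 112 and 127 members, beside 968 and 1200 of the 4408 genes, and mouse 2 was then the lowest for 60.1% of these genes. Levels also followed transcript length. The 4305 genes with a length and a mean of at least 10 FPKM were cut into 5 equal classes by length. In the class of the shortest transcripts the median log2 ratio to the mean of the mice was -0.31 in mouse 1 and 0.27 in mouse 2, and in the class of the longest it was 0.18 and -0.23. Mouse 3 stayed between -0.02 and 0.01 in all 5 classes. With the medians of 10 such classes removed, mouse 2 was highest for 88 members and mouse 1 lowest for 100, beside 35.4% and 38.5% of the 4408 genes, and the median CV was 8.33% for the members and 9.94% for these genes, an alternative chosen after seeing the data. What the length trend came from was not tested.

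Of the 15 members with the largest CV as deposited, 11 were genes of ribosomal proteins or oxidative phosphorylation. They were led by *Rps15* at 469, 967, and 642 FPKM, and the others were *Napsa*, *Pck1*, *Slc7a13*, and *Ttc36*. Ribosomal proteins were 41 and oxidative phosphorylation 33 of the 200 members. The longest transcripts of the 11 genes have 390 to 964 bases, within the shortest length class above (216 to 1375 bases). In that class the median log2 ratio to the mean was -0.31 in mouse 1 and 0.27 in mouse 2. The part of the length trend in the CV of these genes was not tested. *Napsa* was at 1432, 2098, and 679 FPKM (CV 50.6%), with mouse 3 below the other mice. *Pck1*, the rate-setting enzyme of gluconeogenesis that fasting and glucocorticoids raise, had a CV of 47.1%. The 10 members with the smallest CV as deposited were *Itm2b*, *Ces1f*, *Ugt2b38*, *Atp5a1*, *Psap*, *Ldhd*, *Igfbp4*, *Slc25a3*, *Slc25a5*, and *Lamp1*. *Itm2b*, a membrane protein, was at 725, 724, and 717 FPKM. Its share of the summed FPKM differed more, at 0.186%, 0.148%, and 0.168% in mouse 1, 2, and 3. *Actb*, often used as a reference gene, was at 327, 328, and 358 FPKM. As deposited, the highest value was over 2 times the lowest for 8 members, and for 32 members it was within 1.2 times. Neither these counts nor the rankings by CV were computed under another scaling.

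**Figure D5:**
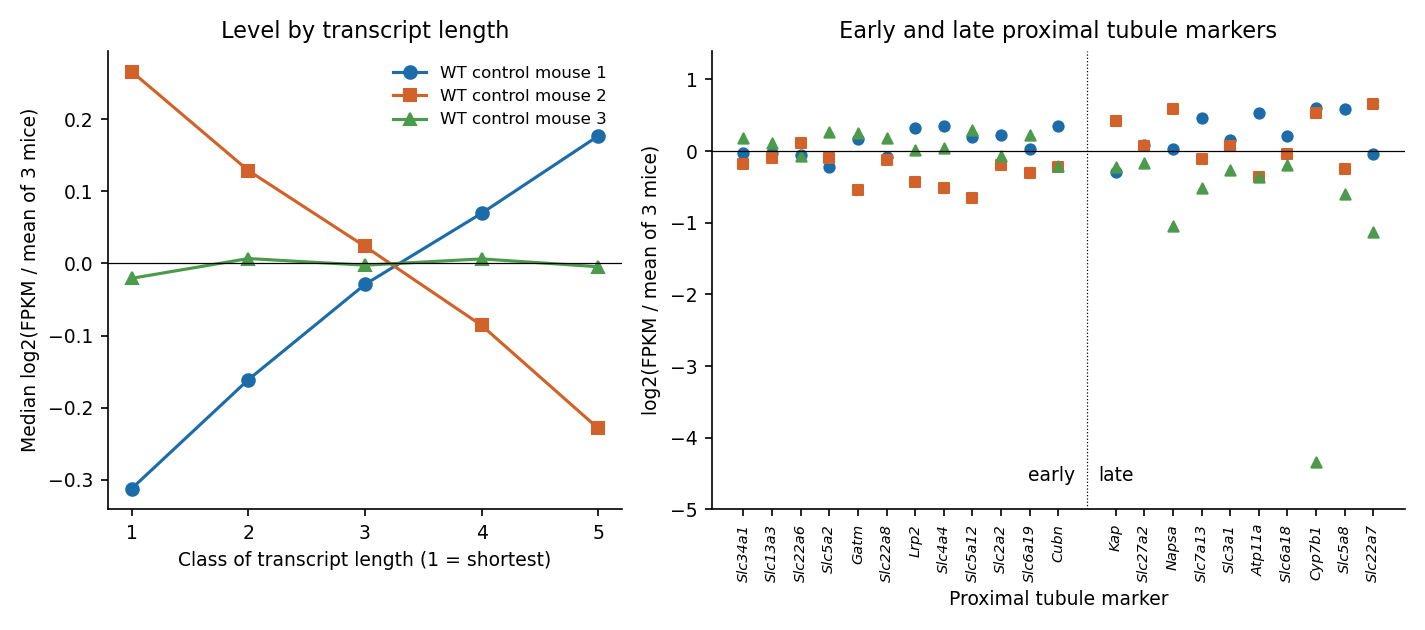
Left, median log2 ratio of a mouse's FPKM to the mean of the 3 WT control mice in 5 equal classes of transcript length, for genes with a mean of at least 10 FPKM; mouse 1 goes from -0.31 to 0.18 and mouse 2 from 0.27 to -0.23. Right, the same ratio for each early and late proximal tubule marker, ordered by mean; 9 of 10 late markers are lowest in mouse 3, with *Cyp7b1* furthest down.

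Mouse 3 was lowest for 9 of the 10 late proximal markers, all but *Kap*, and for 1 of the 12 early markers, beside 17.1% of the 4408 genes. After median-ratio scaling it was lowest for 9 late and 3 early markers, beside 28.1%, and with each mouse scaled to the same sum for 8 late and 0 early markers, beside 12.7%. With the length medians removed it was lowest for all 10 late markers, beside 25.5%. Low values in mouse 3 were not limited to S3, since it was also lowest for 5 of 9 thick ascending limb markers, or 7 with each mouse scaled to the same sum, and for 3 of 4 genes of the inner medulla and osmolyte list. The largest gap was in *Cyp7b1*, an oxysterol hydroxylase, at 73.7, 70.3, and 2.41 FPKM. *Slc22a7*, an organic anion transporter, was at 40.1, 65.2, and 18.8 FPKM. Across the 4408 genes with a mean of at least 10 FPKM, 23 were below 0.5 times both other mice in mouse 3, against 8 in mouse 2 and 4 in mouse 1. With each mouse scaled to the same sum the order turned, with 21 such genes in mouse 3, 32 in mouse 2, and 2 in mouse 1. After median-ratio scaling the counts were 27, 3, and 5, and with the length medians removed 25, 1, and 2. The 23 genes of mouse 3 as deposited were seen after the values and included the meprin subunit *Mep1b* (87.8, 86.2, and 14.7 FPKM), angiotensinogen *Agt* (26.5, 41.2, and 9.29 FPKM), *Serpina1d* (56.4, 89.0, and 2.04 FPKM), and the transporters *Slc22a13* and *Slc22a19*. *Kap* was lowest in mouse 1 as deposited and after median-ratio scaling, but its share of the summed FPKM, 10.6%, 13.9%, and 10.2%, was lowest in mouse 3.

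As deposited, mouse 1 was above 2 times both other mice for 5 genes, mouse 2 for 1, and mouse 3 for 0. These counts moved with the scaling, to 24, 0, and 0 with each mouse scaled to the same sum and to 4, 6, and 0 after median-ratio scaling. The genes of mouse 1 as deposited were *Pck1*, *Klf9*, *Tsc22d3*, *Ugt3a1*, and LOC108169013, of which *Pck1* and *Ugt3a1* were no longer among them after median-ratio scaling. *Klf9* was at 47.6, 10.5, and 20.6 FPKM and *Tsc22d3* at 21.9, 9.02, and 9.02 FPKM, and both are known as glucocorticoid-responsive. *Cfb*, the complement gene that the series deleted in other mice, was at 131, 62.2, and 126 FPKM in these WT kidneys, with mouse 2 below the others.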

How the data were processed

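The 3 WT control mice of the series were described, 3 of 14 mice. Each gene has an FPKM value in a table that the authors deposited for each mouse, with NCBI symbols, gene IDs, and GO terms. No header names the unit, and it was inferred from non-integer values with a different sum in each mouse and from the tools named. The submitters' processing notes name Trimmomatic, HISAT2, Cufflinks, HTSeq, DESeq, and build GRCm38.p6, without versions or roles. Absolute depth is unknown. Among genes under 0.1 FPKM in all mice, the commonest log2 ratios between mice were 0 (mouse 2 over mouse 1), -0.1 (mouse 3 over mouse 1), and -0.1 (mouse 3 over mouse 2), but these were shared by only 31 of 1061, 42 of 1166, and 122 of 1084 genes, so relative depth was not recovered.

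Genes were ranked by mean FPKM and the 200 most abundant were kept. A gene's share is its FPKM over the sum of the mouse. Correlations used log2(FPKM + 0.1). Function classes came from patterns of gene symbols, the first match counting, and segment lists from known markers. Members and lists were chosen with earlier results of these data known, and the proximal set after the values of the members. The genes named were the 30 most abundant, the markers, the 15 members of the largest and 10 of the smallest CV, the 5 on each side of rank 200, and the 3 most abundant of each class. Others were chosen after their values were seen, to show a class, a set, or a difference between mice. Transcript length is that of the longest transcript of a symbol in GENCODE M21 and was found for 99.0% of members. Ribosomal, ferritin, and globin genes have near-identical copies, so their values are uncertain. Alternatives were TPM (each mouse scaled to the same sum), median-ratio scaling, centring within 10 classes of length, other numbers of genes, other pseudocounts, other FPKM minimums, and leaving out each mouse. The scripts were tested on simulated data. Python 3.11.15, numpy 2.4.6, pandas 2.3.3, and matplotlib 3.10.9 were used. No column of other mice was used, and protein lengths were not computed. A few genes are not reported here.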

Additional observations from a re-analysis of the deposited data

How the results depend on the processing

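No paired analysis was possible because a single group was described and no test was made. Of 104 values under an alternative, 82 moved by less than the spread between mice, or by less than 1.5 times for counts. A share of the summed FPKM can change under rescaling only through the ranking, so those values could hardly move. The 82 also include median CVs of 14.5% and 27.7%, beside 21.4% with all mice. By construction, the share of the summed FPKM was 40.5% for 100 genes and 60.7% for 400 genes, and without *Kap* it was 43.5%. Leaving out a mouse gave shares from 48.2% to 51.6%, and 192 to 197 of the same 200 genes. The count of genes at or above 1 FPKM in all mice was 10181 to 10535 with a mouse left out, and at a minimum of 10 FPKM it was 3926. The median CV of the members was 13.5% with TPM, 27.2% with median-ratio scaling, and 8.33% after centring by transcript length, and 14.5% to 27.7% with a mouse left out. Without mouse 2 it was 14.5%, without mouse 1 14.6%, and without mouse 3 27.7%. On the log2 scale the median SD was 0.31. The lowest r of the 3 pairs was 0.988 with a pseudocount of 1, 0.986 with 0.01, and 0.970 over genes with a mean of at least 1 FPKM. Ribosomal and oxidative phosphorylation genes numbered 36 of 100 and 128 of 400 genes, and 71 to 78 of 200 with a mouse left out. The early proximal list was 3333 FPKM as a sum in place of a median, and its median was 124 to 139 FPKM with a mouse left out. Members highest in mouse 2 numbered 112 with TPM, 176 with median-ratio scaling, and 88 after centring by length. No symbol matched the pattern for mitochondrially encoded genes, so they are absent from every share. Leaving them out was therefore not run separately. Depth limits the values near 0, where single fragments decide.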

Other observations

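*Gapdh*, a glycolytic enzyme often used as a reference gene, was listed at 2.11, 4.32, and 4.10 FPKM, although the glycolytic enzymes *Tpi1* and *Eno1* were among the 200 most abundant genes, at 432 ± 53.4 and 321 ± 57.2 FPKM (SD, n = 3). *Gapdh* has many near-identical pseudogenes, and how the counting treated them was not tested. *Ugt1a6b*, a glucuronosyltransferase that shares exons with other genes of its cluster, was at 6.69, 102, and 82.9 FPKM, so mouse 1 stood far below the other mice. *Aqp1*, the water channel of the proximal tubule and thin descending limb, was at 331, 302, and 249 FPKM and lay outside the members.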
